A study of Homo sapiens with 6 samples.

Results

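Genes that make, sense and respond to active vitamin D were examined in MCF10A, an immortalised human breast epithelial line that forms no tumours, after stable transfection with an shRNA against FRY. The set holds both hydroxylase genes CYP24A1 and CYP27B1, the receptor gene VDR, the partner receptor gene RXRA, and the target genes CAMP and TRPV6. Every probe set that the platform annotation assigns to 1 of these symbols alone was taken, which gave 11 probe sets of 6 genes among 54675 probe sets in all. The genes were chosen by their place in the pathway and by the shFRY minus control differences of these same samples, CYP24A1 and CYP27B1 being far higher in shFRY. Their differences are therefore a description and carry no test.

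The shFRY group consists of 3 RNA samples of clone 10A-shFRY, which the labels put at about 60% less FRY than MCF10A. The control group consists of 3 RNA samples of clone 10A-CV, which carries a non-targeting shRNA. Both clones were selected with puromycin and grown in medium with epidermal growth factor (20 ng/ml), insulin (10 ug/ml), hydrocortisone (5 ug/ml) and bovine pituitary extract, and RNA was taken at 70% confluence. The 3 samples of each clone came from different passages. Each construct is represented by 1 clone, so a difference between clones and an effect of the shRNA cannot be told apart, and p-values reflect only how much samples of 1 clone vary. The labels name no vitamin D compound among the additives of the medium.

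Active vitamin D, calcitriol, is made from its circulating precursor calcidiol by the mitochondrial cytochrome P450 that CYP27B1 encodes. Calcitriol binds the nuclear receptor VDR, which pairs with RXR receptors on DNA and turns on target genes. The best known target is CYP24A1 itself, whose product, another mitochondrial P450, breaks down both calcitriol and calcidiol and so closes a feedback loop. Kidney is the main source of circulating calcitriol, but keratinocytes, macrophages and mammary epithelium also carry CYP27B1 and VDR.

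Values were log2 signals with medians between 3.02 and 3.06 in the 6 samples. They correlated at r = 0.992 to 0.995 within a group and at r = 0.972 to 0.978 between groups, across probe sets. FRY was lower in shFRY at each of its 4 probe sets, by 0.32 to 0.75 in size on the log2 scale, and 1 of them passed an adjusted p of 0.05 (204072_s_at, -0.75, limma adjusted p = 0.0223). The beta-actin 3' minus 5' difference, a measure of RNA length and amplification, was 2.87 ± 0.03 in shFRY and 2.52 ± 0.19 in control samples (log2, SD, n = 3 each), so it moved with the groups and with every result below. Its part in them was not tested beyond the fits that carry it as a covariate, and the number of arrays limits the precision. Of the basal epithelial markers 7 of 10 were measured, and all 7 had means above the median of all probe sets (3.04). Their summed signal was 13.97 to 14.1 in shFRY and 13.1 to 13.2 in control samples (log2). Of 7 measured markers of myeloid and lymphoid cells, all but PTPRC had group means under that median, and PTPRC averaged 2.13 in shFRY and 3.19 in control samples. The summed signal of 7 fibroblast markers was 6.15 to 6.17 in shFRY and 7.79 to 8.09 in control samples. Of these, LUM, DCN and COL3A1 were called lower in shFRY. COL1A1 (-0.28), COL1A2 (-0.12), PDGFRB (0.17) and THY1 (0.24) were not called. For 4 endothelial markers the summed signal was 7.43 to 7.67 in shFRY and 7.95 to 8.01 in control samples. The brightest of these, PECAM1, averaged 7.40 in shFRY and 7.54 in control samples (limma adjusted p = 0.354). KDR was lower in shFRY (-2.45, limma adjusted p = 7.68e-05), and CDH5 and VWF lay under the median of all probe sets in both groups. The summed signal of 4 adipocyte markers was 4.04 to 4.34 in shFRY and 4.18 to 4.40 in control samples, with none called. The part of these markers in the results was not tested. The arrays measure RNA of whole cultures, in which fewer cells expressing a gene and less RNA per cell cannot be told apart.

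**Figure D1:**
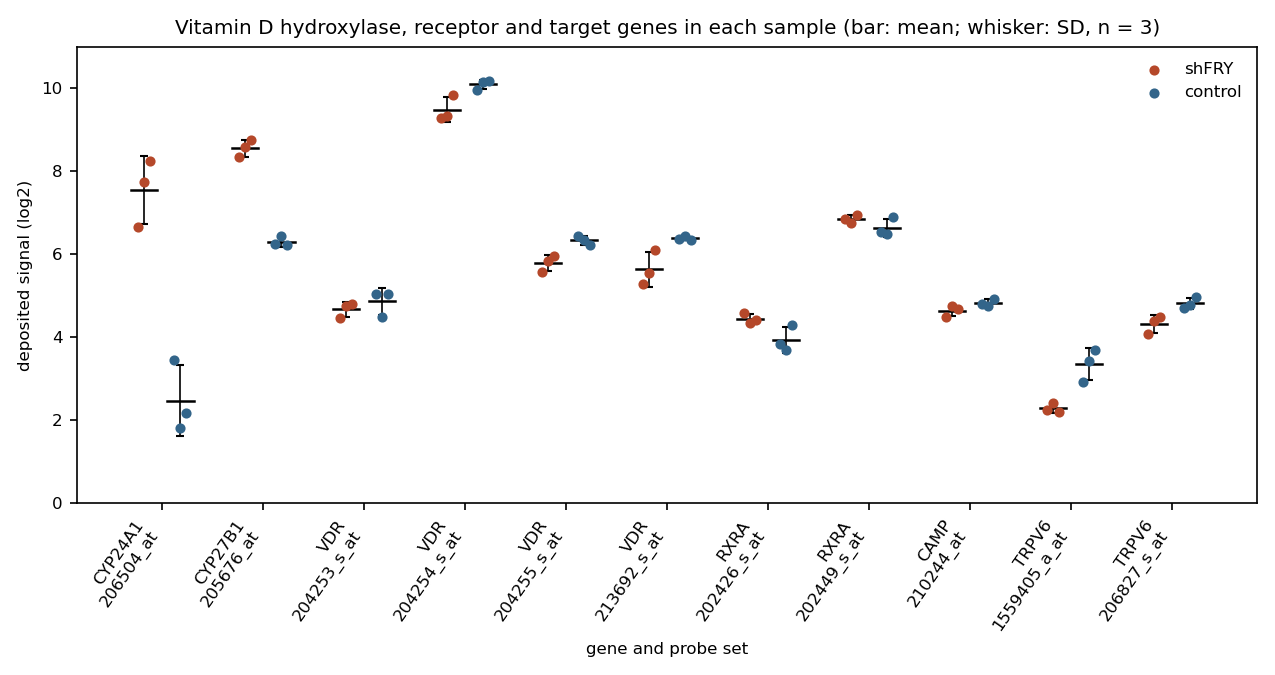
Deposited log2 signal (vertical axis) of the 11 probe sets of the vitamin D genes in each of the 3 shFRY samples (left, red) and 3 control samples (right, blue), with mean and SD. CYP24A1 and CYP27B1 stand 5.08 and 2.26 higher in shFRY, while 6 probe sets of VDR, TRPV6 and CAMP stand below control without overlap. The groups of CAMP nearly touch, with the highest shFRY sample at 4.7441 and the lowest control sample at 4.7442.

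CYP24A1, the catabolic hydroxylase gene, showed by far the widest separation of the set. Its only probe set, 206504_at, read 6.66, 7.74 and 8.25 in shFRY samples 1, 2 and 3, against 3.44, 1.81 and 2.16 in control samples 1, 2 and 3. The groups did not overlap, and the lowest shFRY sample lay more than 3 log2 units above the highest control sample. Means were 7.55 ± 0.81 in shFRY and 2.47 ± 0.86 in control samples (SD, n = 3 each), a difference of 5.08 (SE 0.48), or 33.9-fold. This put CYP24A1 in place 10 of 19775 genes by difference. The control mean lay at percentile 41.1 of all probe sets in that group and the shFRY mean at percentile 86.3. The spread within each group was also the widest of the 11 probe sets, since control sample 1 read higher than the other controls and shFRY sample 1 lower than the other shFRY samples.

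CYP27B1, the activating hydroxylase gene, was also higher in shFRY, with a tighter spread. Its only probe set, 205676_at, read 8.35, 8.58 and 8.76 in shFRY samples 1, 2 and 3, against 6.24, 6.45 and 6.22 in control samples 1, 2 and 3. All shFRY samples lay clear of all control samples. The means were 8.56 ± 0.21 in shFRY and 6.30 ± 0.13 in control samples (SD, n = 3 each), a difference of 2.26 (SE 0.14), or 4.78-fold, in place 123 of 19775 genes. Its control signal was already at percentile 78.1 of all probe sets, so the gene was above the middle of the array in both clones. The genes for making and for degrading calcitriol were therefore both higher in the same 3 samples.

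VDR, the receptor gene, was lower in shFRY at 4 of 4 probe sets, by a far smaller amount. The brightest, 204254_s_at, read 9.29, 9.34 and 9.84 in shFRY samples 1, 2 and 3, against 9.97, 10.15 and 10.18 in control samples 1, 2 and 3, and the groups did not overlap. Its means were 9.49 ± 0.31 in shFRY and 10.10 ± 0.11 in control samples (SD, n = 3 each), a difference of -0.61 (SE 0.16). The shFRY mean stayed at percentile 95.6 of all probe sets, among the brightest signals on the array.

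Probe set 213692_s_at of VDR read 5.28, 5.54 and 6.10 in shFRY samples 1, 2 and 3, against 6.38, 6.44 and 6.34 in control samples 1, 2 and 3, a difference of -0.74 (SE 0.19). Probe set 204255_s_at read 5.57, 5.83 and 5.97 in shFRY and 6.44, 6.34 and 6.23 in control samples, a difference of -0.55 (SE 0.13). At both, the groups were apart, and shFRY sample 3 came closest to the controls. At 204253_s_at the groups overlapped, with 4.47, 4.76 and 4.80 in shFRY and 5.05, 4.49 and 5.05 in control samples and a difference of -0.19 (SE 0.18). All 4 VDR probe sets are of the _s_at kind, whose probes can match more than 1 transcript.

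RXRA, the DNA-binding partner of VDR and of several other nuclear receptors, read somewhat higher in shFRY at both probe sets. Probe set 202449_s_at read 6.85, 6.75 and 6.96 in shFRY samples 1, 2 and 3, against 6.54, 6.49 and 6.89 in control samples 1, 2 and 3, which overlapped (difference 0.21, SE 0.14). Probe set 202426_s_at read 4.58, 4.34 and 4.42 in shFRY and 3.84, 3.69 and 4.29 in control samples, a difference of 0.50 (SE 0.16) with no overlap. Control sample 3 was the highest control at both probe sets and lay near the shFRY samples. With the beta-actin difference as a covariate the values were -0.09 and 0.08, so the direction at 202449_s_at turned. Probe set 202426_s_at was not called as reported, but was called higher with median centring, with another quantile normalization, with dim probe sets left out and without control sample 3 (0.68, SE 0.14).

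TRPV6, an epithelial calcium channel gene that calcitriol raises in intestine, was lower in shFRY at both probe sets. Probe set 1559405_a_at read 2.25, 2.41 and 2.19 in shFRY samples 1, 2 and 3, against 2.92, 3.43 and 3.68 in control samples 1, 2 and 3. The means of 2.28 ± 0.11 in shFRY and 3.34 ± 0.39 in control samples (SD, n = 3 each) differed by -1.06 (SE 0.19), around the middle of the array's signals. Probe set 206827_s_at read 4.08, 4.40 and 4.48 in shFRY and 4.71, 4.78 and 4.97 in control samples, a difference of -0.50 (SE 0.14). Neither probe set overlapped between the groups.

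CAMP encodes cathelicidin, an antimicrobial peptide precursor of neutrophils and epithelia that calcitriol raises in human cells. Its probe set 210244_at read 4.49, 4.74 and 4.67 in shFRY samples 1, 2 and 3, against 4.80, 4.74 and 4.93 in control samples 1, 2 and 3. The highest shFRY and the lowest control sample were equal to 2 decimals, and the means of 4.63 ± 0.13 in shFRY and 4.82 ± 0.09 in control samples (SD, n = 3 each) differed by -0.19 (SE 0.11). CAMP was thus not higher in the samples where CYP24A1 was. The neutrophil genes ELANE, MPO and AZU1 averaged 2.20, 2.48 and 2.46 in shFRY and 2.19, 2.24 and 2.51 in control samples.

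The 250 bases before the start of CAMP and of TRPV6 are shown because these are the target genes that were not higher where CYP24A1 was. They come from RefSeq on GRCh38.p14, run 5' to 3' on the gene's strand and lie at chr3:48223245-48223494, + strand for CAMP and chr7:142885746-142885995, - strand for TRPV6. Capitals mark the 15 bases of the match described next.
CAMP: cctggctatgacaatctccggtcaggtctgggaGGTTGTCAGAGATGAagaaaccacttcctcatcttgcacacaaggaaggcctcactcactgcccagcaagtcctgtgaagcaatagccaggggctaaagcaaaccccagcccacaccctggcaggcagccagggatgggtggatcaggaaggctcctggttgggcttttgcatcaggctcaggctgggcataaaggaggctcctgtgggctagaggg
TRPV6: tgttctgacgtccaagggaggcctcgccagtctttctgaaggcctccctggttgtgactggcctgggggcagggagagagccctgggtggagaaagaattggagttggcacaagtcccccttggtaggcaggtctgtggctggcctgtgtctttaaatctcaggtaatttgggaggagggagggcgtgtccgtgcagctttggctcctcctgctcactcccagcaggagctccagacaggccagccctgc
VDR and RXR bind a DR3 element, 2 half-sites of 6 bases in the same direction with 3 bases between them. A half-site was read as A or G, then G, then G or T, then T, then C or G, then A. Windows of 300 bases, from 250 before to 50 after a gene's start, were searched on both strands with up to 2 mismatches in the 12 fixed letters. CAMP held a match whose first base lay at position -217 from its start, and TRPV6 and both windows of RXRA held none. Such a match is common, being found in 46.1% of 35116 windows, and with 1 mismatch allowed, where 5.29% of windows matched, none of these 4 did. The match is a description of the letters, and the elements known to work for these genes may lie outside the windows.

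In the limma fit over all 54613 probe sets other than controls, 2 of the 11 probe sets were called higher and 5 lower in shFRY at an adjusted p of 0.05, which is 7 of 11 beside 23.1% of all probe sets. Of all probe sets, 10.9% were called higher and 12.2% lower. Overlap between groups was absent at 9 of the 11 probe sets, counting CAMP where the groups nearly touch, and at 39.2% of all probe sets. Nothing is read from these shares, because the genes were chosen with this contrast in view and several probe sets share a gene. CYP24A1 206504_at and CYP27B1 205676_at stayed called in all 14 alternative fits. These fits reuse the arrays on which the 2 genes were chosen, so they add no support for the difference. The number called higher was 2 or 3 in these fits, the third being RXRA 202426_s_at. The number called lower ranged from 1 to 5 when 1 sample was left out and was 1 with the beta-actin covariate, where 3 VDR probe sets and TRPV6 206827_s_at lost theirs. Their errors were 1.91 to 2.03 times as large in that fit, and 3 of these 4 differences stayed within 1.5 times of the reported ones: -0.72 (SE 0.33) at VDR 204254_s_at, -0.60 (SE 0.39) at VDR 213692_s_at and -0.71 (SE 0.27) at TRPV6 206827_s_at. The smaller one was VDR 204255_s_at at -0.32 (SE 0.25). Probe sets outside this count also moved. TRPV6 1559405_a_at kept its call and was at -1.79 (SE 0.21) in place of -1.06. Among those not called, RXRA 202426_s_at was at 0.08 in place of 0.50, RXRA 202449_s_at at -0.09 in place of 0.21, and CAMP at -0.31 in place of -0.19.

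**Figure D2:**
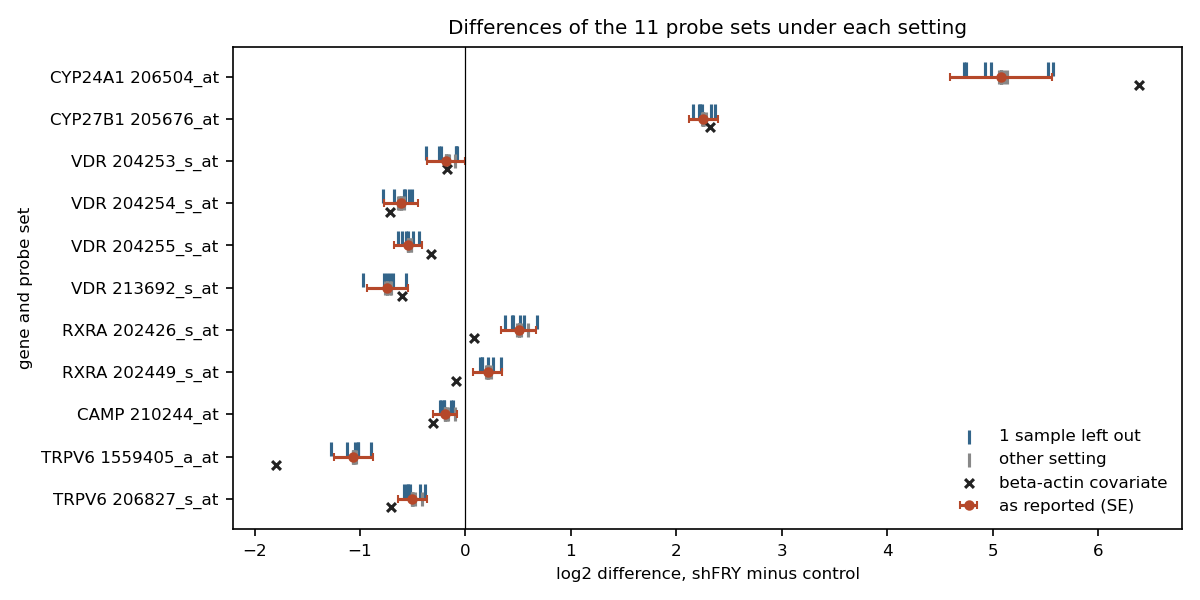
Log2 difference, shFRY minus control (horizontal axis), of each probe set as reported (red, with SE), with 1 sample left out (blue), under other settings (grey) and with the beta-actin covariate (crosses). CYP24A1 stayed between 4.73 and 6.39 and CYP27B1 between 2.16 and 2.36, while RXRA 202449_s_at crossed 0.

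Directions held over the settings shown in the plot of differences for every probe set but RXRA 202449_s_at. CYP24A1 ranged from 4.73 to 6.39, the upper end coming with the beta-actin covariate (SE 0.81), and CYP27B1 from 2.16 to 2.36. VDR 204254_s_at ranged from -0.79 to -0.51 and TRPV6 1559405_a_at from -1.79 to -0.89. Within the shFRY group, sample 3 was the highest at 8 of the 11 probe sets (72.7%), including CYP24A1, CYP27B1 and all 4 of VDR, whereas it was the highest at 34.3% of all probe sets. Thus the shFRY sample with the most CYP24A1 signal also had the most VDR signal, although VDR was lower in shFRY than in control. This order rests on 3 samples, and the 4 VDR probe sets belong to the same gene. Among control samples, sample 1 was the highest for CYP24A1 (3.44). That sample was the lowest control at VDR 204254_s_at (9.97) and the highest at VDR 204255_s_at (6.44).

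The genes closest to CYP24A1 were found by the distance over the 6 samples, after subtracting each gene's own control mean and with no scaling. They were CXCL8 (distance 1.37, difference 5.54), SOX5 (1.47, 4.66), S100A8 (1.66, 4.69), PTGS2 (1.81, 4.78) and C3 (1.91, 4.56). For CYP27B1 the closest were ERFE (distance 0.24, difference 2.19), GADD45A (0.29, 2.23) and PLXDC2 (0.34, 2.21). Such nearness mostly reflects a like size of difference, on which CYP24A1 and CYP27B1 were chosen. Shared regulation was not tested.

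The other cytochrome P450 genes, 45 by their symbols, were compared in a fit with 1 probe set per gene over 19775 genes, in which 29.8% of all genes were called (13.7% higher and 16.0% lower). Of the 45, 4 rose and 7 fell, which is 24.4%, with a median difference of 0.07 beside 0.03 for all genes. With 1 sample left out, 1 to 5 rose (2 without shFRY sample 2 or control sample 1 or 2, 1 without control sample 3) and 4 to 7 fell (4 without shFRY sample 1 or control sample 2 or 3). The largest called differences were falls. CYP1A1, the xenobiotic hydroxylase gene under the aryl hydrocarbon receptor, averaged 2.61 ± 0.37 in shFRY and 5.80 ± 0.41 in control samples (SD, n = 3 each; difference -3.18, SE 0.24, limma adjusted p = 5.87e-05). CYP2U1, a fatty acid hydroxylase gene, fell by 2.38 (limma adjusted p = 0.000337; by 0.72 with its 4 probe sets averaged, of which 2 were called lower), and CYP1B1, an estrogen and xenobiotic hydroxylase gene, fell by 0.90 (limma adjusted p = 0.000292). No other P450 gene differed upward by more than 0.68, the value of the retinoic acid hydroxylase gene CYP26B1, against 5.08 for CYP24A1 and 2.26 for CYP27B1.

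**Figure D3:**
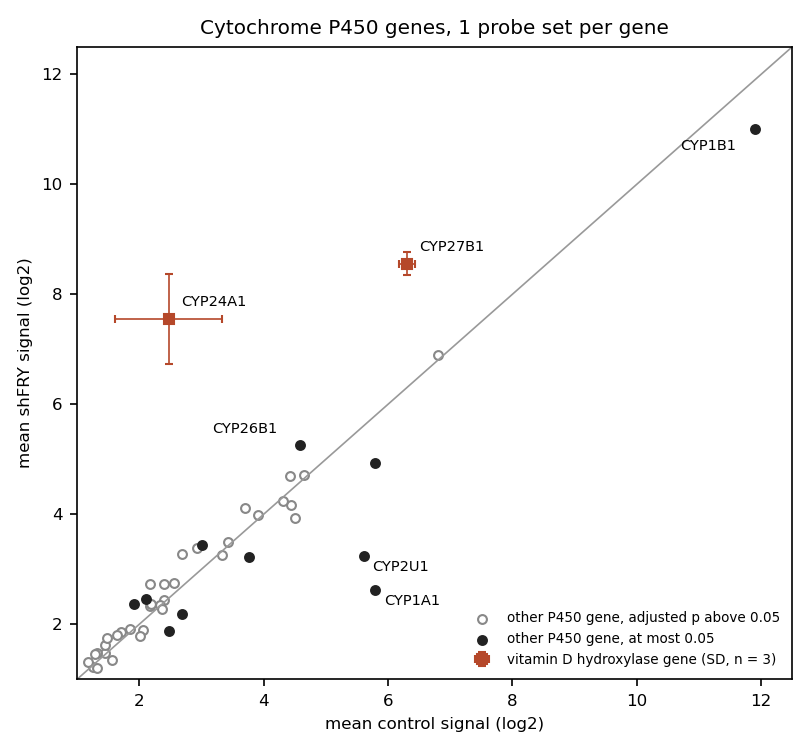
Mean log2 signal in shFRY (vertical axis) against control (horizontal axis) for the 45 other cytochrome P450 genes (circles, filled where the adjusted p was at most 0.05) and for CYP24A1 and CYP27B1 (squares, with SD). The line marks equal signals; the 2 vitamin D hydroxylase genes lie above it and CYP1A1 and CYP2U1 lie below.

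Among the other genes of vitamin D metabolism, 10 of 12 were measured, and 1 rose and 1 fell, with a median difference of 0.06. The share called was 20.0% beside 29.8% of all genes. FDX1, whose ferredoxin passes electrons to mitochondrial P450s, averaged 10.53 ± 0.16 in shFRY and 10.01 ± 0.11 in control samples (SD, n = 3 each; difference 0.52, SE 0.12, limma adjusted p = 0.0115). DHCR7, whose enzyme turns the skin precursor of vitamin D into cholesterol, averaged 5.89 ± 0.13 in shFRY and 6.86 ± 0.37 in control samples (difference -0.97, SE 0.18, limma adjusted p = 0.00489). The calcidiol-forming hydroxylase genes did not pass: CYP2R1 averaged 4.72 in shFRY and 4.65 in control samples (limma adjusted p = 0.806), and CYP27A1 averaged 2.44 in shFRY and 2.39 in control samples (limma adjusted p = 0.736).

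Among receptor coregulators 10 of 13 were measured, and 4 rose and 1 fell (median 0.20). Over all genes 29.8% were called (13.7% higher and 16.0% lower). The histone acetyltransferase genes EP300 (0.72, limma adjusted p = 0.00205) and CREBBP (0.64, limma adjusted p = 0.00662) rose, as did the chromatin remodelling gene BAZ1B (0.55, limma adjusted p = 0.00309). TRIM24, a nuclear receptor cofactor gene, fell by 0.82 (limma adjusted p = 0.000823), but only where _x_at and _s_at probe sets were kept: the probe set that stood for it otherwise was at 0.00. Of its 4 probe sets, 2 were called lower and 0 higher, and their average differed by -0.46.

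Among the other RXR genes and the receptors that pair with RXR, 14 of 17 were measured, and 4 rose and 1 fell (median 0.17). The share called was 35.7% beside 29.8% of all genes. The relatives of RXRA did not pass, RXRB averaging 4.98 in shFRY and 5.10 in control samples (limma adjusted p = 0.586) and RXRG 1.58 in shFRY and 1.68 in control samples (limma adjusted p = 0.653). The retinoic acid receptor gene RARG (0.68, limma adjusted p = 0.0174), the thyroid hormone receptor gene THRA (0.66, limma adjusted p = 0.0298) and the fatty acid receptor gene PPARD (0.65, limma adjusted p = 0.0125) rose, and PPARA fell by 0.56 (limma adjusted p = 0.0351). These calls rest on few samples: RARG lost its call without shFRY sample 2 (limma adjusted p = 0.0563), THRA without shFRY sample 1 or 3 or control sample 1 or 3 (0.0894, 0.0512, 0.0855 and 0.0761), and PPARA without shFRY sample 1 or control sample 1 or 3 (0.0693, 0.121 and 0.0960). When all probe sets of each gene were averaged, PPARD and THRA were each at 0.14 and not called (limma adjusted p = 0.451 and 0.319). In that fit RARG was at 0.39 and PPARA at -0.48 (limma adjusted p = 0.00633 and 0.00339).

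**Figure D4:**
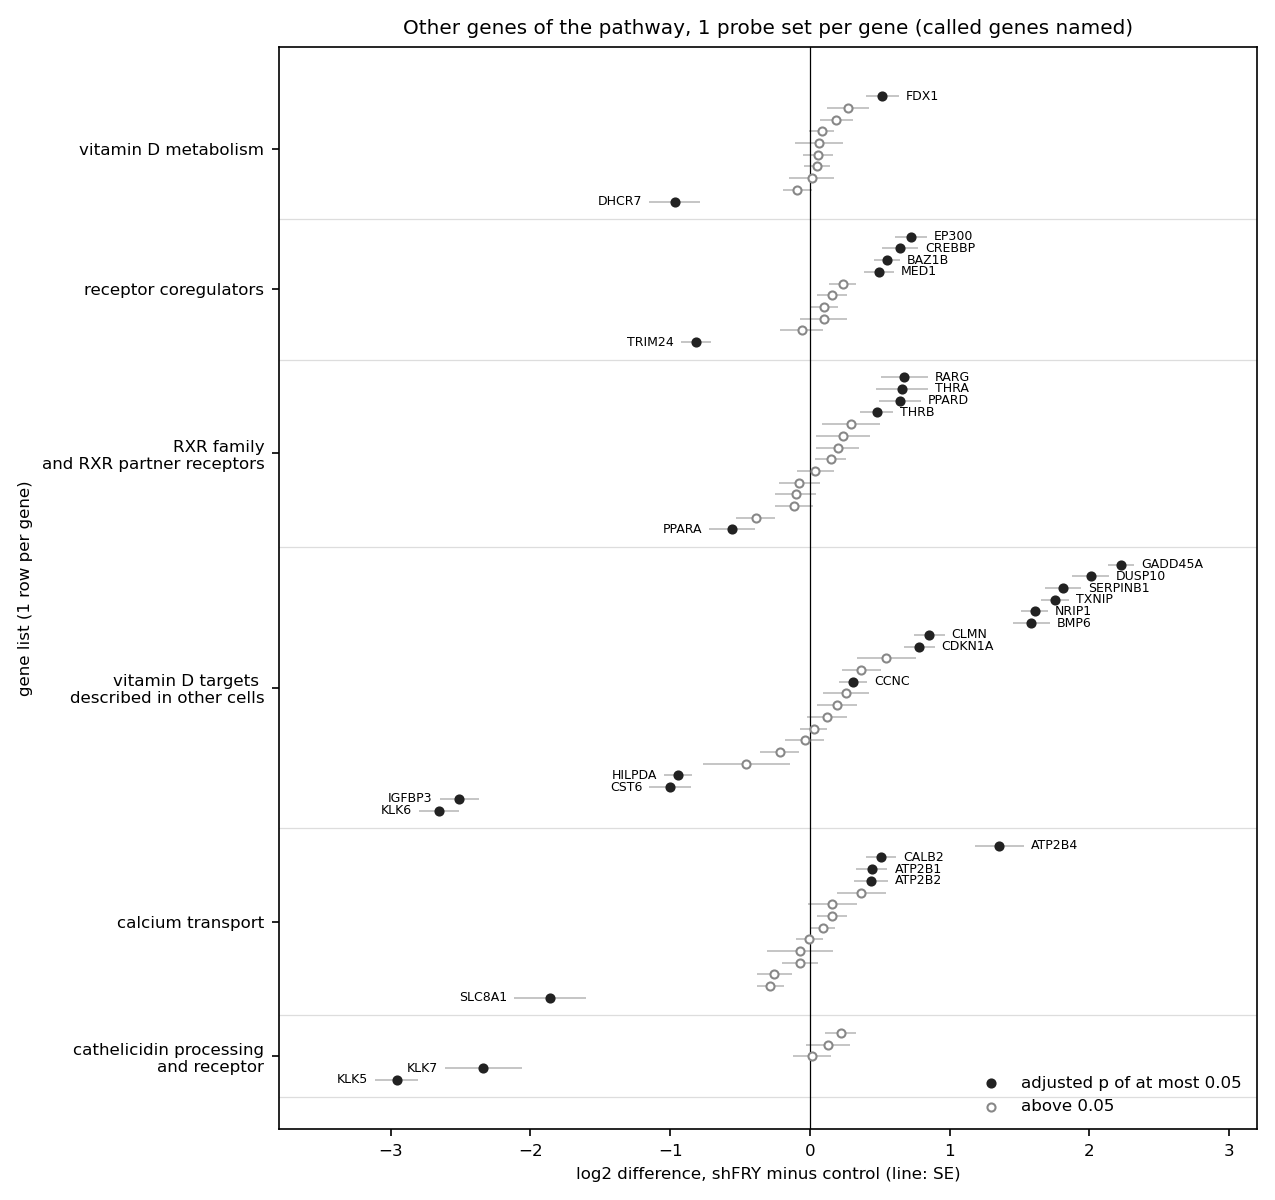
Log2 difference, shFRY minus control, with SE (horizontal axis), of the other genes of the pathway in 6 lists, filled and named where the adjusted p was at most 0.05. Called genes lie on both sides of 0 in 5 lists. The targets described in other cells hold 9 that rose and 4 that fell, which is 59.1% beside 29.8% of all genes.

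Genes described as vitamin D targets in other cells moved in both directions. Of 26, 22 were measured, 9 rose and 4 fell, and the median difference was 0.29. The share called was 59.1% beside 29.8% of all genes. Nothing is read from it, because the list was chosen with earlier results of these data known. GADD45A, a growth arrest gene, averaged 11.62 ± 0.04 in shFRY and 9.39 ± 0.05 in control samples (SD, n = 3 each; difference 2.23, limma adjusted p = 3.12e-06), and the phosphatase gene DUSP10 averaged 6.57 ± 0.20 in shFRY and 4.56 ± 0.14 in control samples (2.01, limma adjusted p = 2.87e-05). IGFBP3, an IGF-binding protein gene, averaged 6.18 ± 0.19 in shFRY and 8.69 ± 0.18 in control samples (-2.51, limma adjusted p = 1.28e-05), and the kallikrein gene KLK6 averaged 2.43 ± 0.23 in shFRY and 5.09 ± 0.16 in control samples (-2.65, limma adjusted p = 1.17e-05). CD14, a monocyte coreceptor gene and a classical calcitriol target, averaged 2.59 in shFRY and 2.63 in control samples (limma adjusted p = 0.874). THBD, another gene of this list, averaged 2.23 in shFRY and 1.68 in control samples (limma adjusted p = 0.0885). Its groups did not overlap, and 1 of its 3 probe sets was called higher. CD14 and THBD were chosen after their values were seen. Genes of this list also answer to other signals, and targets of calcitriol differ between cell types.

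Among calcium transport genes 14 of 14 were measured, and 4 rose and 1 fell, which is 35.7% beside 29.8% of all genes (median 0.13). The plasma membrane calcium pump genes ATP2B4 (1.36, limma adjusted p = 0.000702) and ATP2B1 (0.44, limma adjusted p = 0.0191) rose, as did the calcium-binding protein gene CALB2 (0.51, limma adjusted p = 0.00919). The sodium-calcium exchanger gene SLC8A1 averaged 4.68 ± 0.56 in shFRY and 6.54 ± 0.20 in control samples (SD, n = 3 each; difference -1.86, limma adjusted p = 0.00104). Averaged over its 11 probe sets, of which 5 were called lower, SLC8A1 differed by -0.70 (limma adjusted p = 0.000607). TRPV5, the closest relative of TRPV6, averaged 2.56 in shFRY and 2.40 in control samples (limma adjusted p = 0.550). ATP2B1 lost its call in 5 of 6 fits with 1 sample left out, those without shFRY sample 1 or 2 or any control sample (limma adjusted p = 0.0538 to 0.0622). In the same 5 fits 2 genes of the list rose in place of 4. Averaged over its 3 probe sets with all samples, ATP2B1 differed by 0.61 (limma adjusted p = 0.00181).

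Of 5 genes that process or sense cathelicidin, 2 fell and 0 rose in limma (median 0.02). At an unadjusted p under 0.05, 0 were higher. These counts stand beside 29.8% of all genes called (13.7% higher and 16.0% lower). The kallikreins KLK5 and KLK7 cut the CAMP product into active peptides in skin. KLK5 averaged 6.12 ± 0.06 in shFRY and 9.08 ± 0.31 in control samples (SD, n = 3 each; difference -2.96, limma adjusted p = 9.91e-06), and KLK7 averaged 3.21 ± 0.08 in shFRY and 5.54 ± 0.63 in control samples (-2.34, limma adjusted p = 0.000460). The genes of both proteases were thus lower in the samples where CAMP differed by -0.19.

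Over the 6 lists together, 75 genes were measured, 22 rose and 10 fell, which is 42.7% beside 29.8% of all genes, with a median of 0.15 beside 0.03. Nothing is read from the shares of the lists, since these were chosen with earlier results of the data known. With the beta-actin covariate 8 of the 23 called genes named from these lists and the P450 family were still called, namely CYP1A1, CYP1B1, CYP2U1, DUSP10, GADD45A, IGFBP3, KLK5 and KLK6. Of the 15 that lost their call, 11 had a difference within 1.5 times of the reported one, such as ATP2B4 at 1.28 (SE 0.35), SLC8A1 at -1.75 (SE 0.52) and EP300 at 0.86 (SE 0.23), with the errors of the 15 being 1.53 to 2.05 times as large. The other 4 were smaller: DHCR7 at -0.41, FDX1 at 0.31, RARG at 0.16 and THRA at 0.31. Over all genes that fit called 1026 in place of 5889.

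CYP24A1 lies on chromosome 20 and CYP27B1 on chromosome 12, and the nearest measured genes on each side, taken after the members' values were known, did not share their size of difference. Beside CYP24A1, BCAS1 (0.16, limma adjusted p = 0.623), PFDN4 (-0.05, limma adjusted p = 0.760) and DOK5 (0.02, limma adjusted p = 0.925) did not pass. PFDN4 has 3 probe sets, of which 1 was called higher. ZNF217, a transcriptional repressor gene second in order on the side of BCAS1, averaged 8.63 ± 0.09 in shFRY and 7.66 ± 0.20 in control samples (SD, n = 3 each; difference 0.96, limma adjusted p = 0.000741). Beside CYP27B1, MARCHF9 (-0.73, limma adjusted p = 0.0243) and CDK4 (-0.33, limma adjusted p = 0.0363) fell, while METTL1 (-0.78, limma adjusted p = 0.0608) and EEF1AKMT3 (0.18, limma adjusted p = 0.273) did not pass.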

How the data were processed

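Total RNA of 3 shFRY and 3 control samples (40 ng each) was amplified, labelled with biotin and hybridised, 1 array per sample, per the labels' protocols. The deposited values are log2 signals that the authors made with RMA, per the submitters' processing notes; no version or setting is stated. RMA commonly equalises the arrays' distributions and compresses differences of dim probe sets. Values were used as deposited.

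Of 54675 probe sets, 62 were controls and 41091 had 1 gene symbol in the platform annotation, updated through Entrez IDs to RefSeq (GRCh38.p14) for 41037. The rest were left out of gene-level fits. limma 3.58.1 in R 4.3.3 (lmFit, eBayes, 4 residual degrees of freedom) compared shFRY minus control over 54613 probe sets, and over 19775 genes each represented by its probe set of highest mean, with Benjamini-Hochberg adjustment. The fits were tested on simulated data. No detection calls were used.

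The members, lists and tests were chosen with earlier results of these data known. Named from each of the 6 lists are up to 4 called genes with the largest difference, from the other P450 genes 3, and CYP2R1, CYP27A1, RXRB, RXRG and TRPV5 always. Neighbours, markers, CD14, THBD and CYP26B1 lie outside this rule. Alternatives covered normalization, variance model, dim probe sets, probe set choice, array weights, the replicate block, a beta-actin covariate and leaving out each sample. The labels do not say whether replicate numbers pair the samples, and the main fit did not treat them as pairs.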

Additional observations from a re-analysis of the deposited data

How the results depend on the processing

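Of the alternatives, the beta-actin covariate changed most: 1 of the vitamin D probe sets was called lower in place of 5, 6 genes of the pathway lists rose in place of 22 and 3 fell in place of 10, 3 other P450 genes fell in place of 7 and 0 rose in place of 4 (limma; 2 were higher at an unadjusted p under 0.05), and 1677 of all probe sets and 1026 of all genes were called in place of 12617 and 5889. Errors were larger in that fit (1.91 to 2.03 times for the 4 vitamin D probe sets that lost their call), and 3 of these 4 differences and 11 of 15 among named genes stayed within 1.5 times. Outside this count, TRPV6 1559405_a_at was at -1.79 in place of -1.06, RXRA 202426_s_at at 0.08 in place of 0.50, RXRA 202449_s_at at -0.09 in place of 0.21, and CAMP at -0.31 in place of -0.19. Without _x_at and _s_at probe sets, which leaves 4 of the 11 vitamin D probe sets and fewer to test, 1 was called lower, 13 list genes rose and 6 fell, and 7260 probe sets were called in all; TRIM24 reversed to 0.0049. The number of other P450 genes that rose was 2 with trend and robust options, 2 over the upper part of probe sets, 1 with the mean of probe sets and 2 with the replicate block. With 1 sample left out, the vitamin D probe sets called lower numbered 1 to 5 (2 without shFRY sample 1 or 2 or control sample 3, 1 without control sample 1 or 2), and the other P450 genes 1 to 5 higher and 4 to 7 lower. Differences that never passed also changed sign: CYP2R1 was at -0.0949 with the mean of probe sets and ranged from -0.0489 to 0.2546 with 1 sample left out, RXRB from -0.2165 to 0.0323, RXRG from -0.2241 to 0.0393 and TRPV5 from -0.0366 to 0.3171. The causes were not tested.

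The replicate block left the vitamin D calls at 2 higher and 5 lower, and PPARA (limma adjusted p = 0.0645) and THRA (0.0598) missed the threshold with it. Deviations of same-numbered samples from their group means correlated at r = 0.0030, -0.0043 and 0.0388. The labels do not say whether the numbers pair samples, and these values cannot decide it. FDX1 missed the threshold without _s_at probe sets (0.0575), and PPARD (0.451) and THRA (0.319) with the mean of probe sets. Of 411 values of named genes under the alternatives, 369 kept direction and side of the threshold. Dim signals, such as CYP24A1 in control and TRPV6, limit how well a difference can be sized.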
